A study of Solanum pimpinellifolium and Solanum chilense with 12 samples.

Results

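Gene expression in the unpollinated style was compared between self-incompatible (SI) Solanum chilense LA0130 and self-compatible (SC) Solanum pimpinellifolium LA1585. The genes described are the 19,215, of 34,718 with values, that reached 1 RPKM or more in 3 or more of the 6 libraries of unpollinated (UP) styles. RPKM is a count of reads scaled by the length of the gene and the depth of the library. Of the genes left out, 7851 were at 0 in all 6 libraries and 7652 were above 0 but below this minimum.

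The study sequenced mRNA from styles with their stigmas in 4 groups of 3 libraries, 12 in all. SIUP is unpollinated S. chilense LA0130 and SCUP unpollinated S. pimpinellifolium LA1585, both collected at 24 h from greenhouse plants. SIP and SCP are styles of the same accessions 24 h after self-pollination, and they enter only where stated. Each species is represented by 1 accession, so a difference between the species cannot be told apart from a difference between these accessions or their plants. The study calls the 3 libraries of a group biological replicates. Whether they stem from different plants is not stated, and the p-values rest on the spread among these libraries alone.

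The style is the tissue that a pollen tube crosses between the stigma and the ovary. Its transmitting tract secretes a matrix of polysaccharides and glycoproteins through which the tube grows. In the self-incompatible members of the tomato family, ribonucleases of the style (S-RNases) take part in the rejection of own pollen, and they are made before any pollen arrives. Cell wall enzymes and the hormones ethylene, auxin, abscisic acid (ABA) and jasmonic acid (JA) are further known to act in pistils. The deposited table gives gene IDs only, so a gene is named here where the study names it or lists Gene Ontology (GO) terms for it. The identity of the tissue could not be checked against markers, since no marker of the style, of pollen or of other floral parts could be matched to an ID.

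Reads of S. chilense mapped less well than those of S. pimpinellifolium to the tomato genome used for both. As a ratio of counts, the reads on genes worked back from the RPKM values equalled 72.6% to 74.0% of the count of quality-filtered pairs in SIUP and 85.2% to 86.1% in SCUP. This ratio is no mapping rate, since the recovered reads are not the mapped pairs that the study counted, and it does not measure the full gap in mapping. They numbered 11,648,678 to 11,932,036 in a SIUP library and 13,395,551 to 14,497,115 in a SCUP library, and 22,898 to 23,044 and 23,751 to 23,902 genes were above 0. A single read on a 1 kb gene therefore stood for 0.0838 to 0.0858 RPKM in SIUP and for 0.0690 to 0.0747 RPKM in SCUP. A gene whose sequence differs between the species, or that the tomato annotation lacks in one of them, can lose reads in that species, and its level cannot be told apart from a lower abundance of its mRNA. In whole styles, fewer cells of a type and less RNA per cell cannot be told apart either.

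The libraries fell apart by species. Correlations of the log2 values over the genes tested were 0.964 to 0.987 among SIUP libraries, 0.952 to 0.983 among SCUP libraries and 0.720 to 0.815 between the species. The first principal component held 85.5% of the variance and separated SIUP from SCUP. The second held 6.13% and set SCUP2 (47.4) against SCUP1 (-37.9).

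Many of the genes tested differed between the unpollinated styles of the species, and their number depended on the test. By limma on log2(RPKM + 0.5) with Benjamini-Hochberg adjustment over all genes tested, 10,001 of 19,215 genes passed an adjusted p under 0.05 (52.0%). Of these, 5405 were higher in SIUP (28.1% of the genes tested) and 4596 lower (23.9%). A difference of at least 2-fold was found for 5956 genes (31.0%), and here the lower genes were the larger group, with 2563 higher in SIUP (13.3%) and 3393 lower (17.7%). At 8-fold or more, 349 were higher in SIUP and 715 lower. Of all genes tested, passing or not, 67.9% lay within 2-fold. The values of the 2 groups did not overlap for 63.4% of the genes tested and for 9940 of the 10,001 that passed. The median difference over all genes tested was 0.13 on the log2 scale, with quartiles of -0.57 and 0.61. This median moved to -0.01 under median-ratio scaling, where 46.5% of the genes that passed were higher in SIUP, against 54.0% with RPKM as deposited. The number that passed fell to 6617 without SIUP3, the number higher to 3376 without SIUP2 and 2882 without SIUP3, and the number lower to 2807 without SCUP3. The minimum of 3 libraries was kept in these fits, so part of each fall is genes no longer tested. Tested were 18,447 genes without SIUP2, 18,449 without SIUP3 and 18,094 without SCUP3. With a replicate block 9546 of the 19,215 genes passed. By the criteria of the study 4209 passed, and by an unequal-variance test on RPKM with adjustment 2259.

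**Figure D1:**
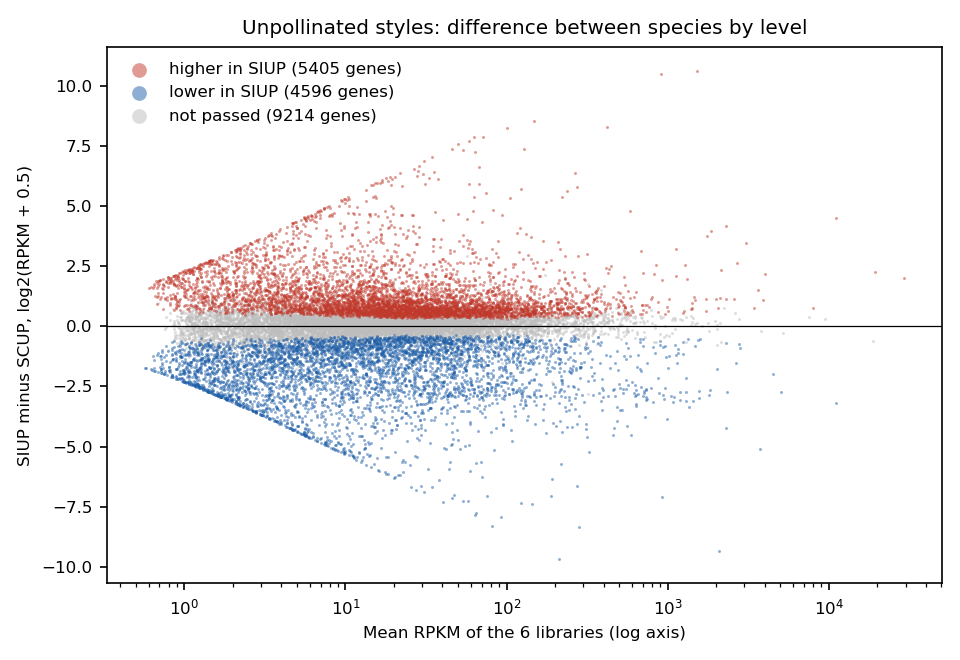
Difference between SIUP and SCUP on the log2(RPKM + 0.5) scale (vertical axis) against the mean RPKM of the 6 libraries (horizontal, log axis), 1 point per gene tested. The 5405 genes higher in SIUP lie above 0 and the 4596 lower lie below it, with the 9214 genes that did not pass around 0. The sloping edges at low levels are genes at or near 0 in one species.

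The direction of the difference varied with the level of the gene. Among genes with a mean of 1 to 2 RPKM, 21.7% were higher in SIUP and 33.4% lower. Among those of 50 to 100 RPKM, 34.0% were higher and 20.7% lower. Above 500 RPKM, the order turned again, with 29.7% higher and 35.5% lower of 276 genes. The lengths that the RPKM steps imply also went with the direction. With the genes put into 4 equal classes by length, 27.8% of the shortest class were higher in SIUP and 30.1% lower, and of the longest class 27.1% were higher and 19.1% lower. Among the 12 chromosomes that the IDs name, chromosome 10 had the highest share of lower genes, 28.6%.

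**Figure D2:**
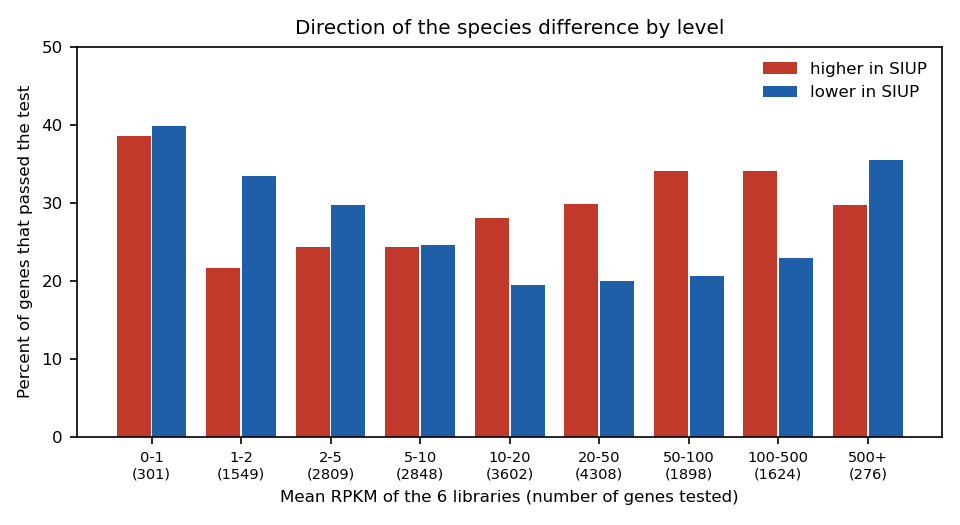
Percent of the genes tested that were higher (left bar) or lower (right bar) in SIUP, by the mean RPKM of the 6 libraries, with the number of genes under each class. Lower genes outnumbered higher ones at 1 to 5 RPKM and above 500 RPKM, and higher genes outnumbered lower ones between 10 and 500 RPKM.

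Genes with reads in both species were counted apart from those near 0 in one. Of the 16,887 genes with a mean of at least 1 RPKM in both SIUP and SCUP, 7930 passed (47.0%), 4597 higher in SIUP and 3333 lower. A mean under 1 RPKM in SIUP alone was found for 1391 genes, of which 1263 passed. A mean under 1 RPKM in SCUP alone was found for 918 genes, of which 808 passed. Genes near 0 in one species therefore made up a larger part of the lower genes than of the higher ones. None of them could reach the minimum without libraries of the other species. The filter thus favoured a difference, and the numbers that passed are no evidence of one.

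At 0 in all 3 SIUP libraries were 299 of the genes tested, and at 0 in all 3 SCUP libraries 119. They had reached the minimum through the other species, so they had to differ, and all of them passed. Their implied lengths were short, with a median of 294 bases for genes at 0 in SIUP and 426 bases for genes at 0 in SCUP, against 1213 bases for all genes tested. Of the 299 genes, 238 were also at 0 in all SIP libraries (79.6%), and of the 119, 86 were at 0 in all SCP libraries (72.3%). The 8 genes at 0 in SIUP with the highest SCUP means, 40.6 to 421 RPKM, were at least 8.63- to 274-fold lower in SIUP, taking a floor of 3 reads per library. The 8 genes at 0 in SCUP with the highest SIUP means, 29.6 to 56.9 RPKM, were at least 19.3- to 93.3-fold higher in SIUP by the same floor. For these genes a loss of reads in mapping and a lack of mRNA cannot be told apart.

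Some genes near 0 in one species were among the abundant ones of the other. Among the 689 genes that passed with a SCUP mean under 1 RPKM but not at 0 throughout, one averaged 1832 ± 434 RPKM in SIUP and 0.752 ± 0.310 RPKM in SCUP (SD, n = 3 each), a log2 difference of 10.52 (SE 0.26). Among the 964 with a SIUP mean under 1 RPKM, the gene highest in SCUP averaged 0.315 ± 0.546 RPKM in SIUP and 186 ± 87.8 RPKM in SCUP, a log2 difference of -7.93 (SE 0.49). Neither is named by the study. Both reached the minimum through the other species, and a loss of reads in mapping cannot be told apart from a lack of mRNA.

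The most abundant transcripts were partly shared. The lists of the 10 highest genes in SIUP and in SCUP had 6 genes in common. Of the 14 genes in either list, 7 were higher in SIUP, 4 were lower and 3 did not pass. The gene that ranked first in SIUP averaged 47,113 ± 8283 RPKM there and 11,631 ± 2299 RPKM in SCUP, where it was the third. The third gene of SIUP averaged 21,351 ± 2699 RPKM in SIUP and 947 ± 137 RPKM in SCUP (log2 difference 4.50, SE 0.24). In the other direction, the second gene of SCUP averaged 2214 ± 390 RPKM in SIUP and 20,090 ± 3245 RPKM in SCUP (-3.18, SE 0.28), and the seventh 233 ± 140 RPKM in SIUP and 7271 ± 1133 RPKM in SCUP (-5.11, SE 0.40). None of the 14 has a name or a GO term in the sources used here. The 10 genes with the most reads in each library took 7.16% to 8.12% of the reads in SIUP and 6.10% to 6.60% in SCUP. These were ranked by reads, not by RPKM, so they need not be the genes listed above.

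The largest differences were taken among genes that passed, did not overlap between the groups and had a mean of at least 1 RPKM in both species. Solyc01g055200 had 4038, 2567 and 2499.6 RPKM in SIUP, against 2.05, 1.23 and 1.04 RPKM in SCUP. It was thus one of the abundant transcripts of the S. chilense style and low in S. pimpinellifolium, with a log2 difference of 10.61 (SE 0.26). Solyc06g009960 had 244, 269 and 257 RPKM in SIUP, against 1.40, 0.484 and 1.51 RPKM in SCUP (7.37, SE 0.27). Neither is annotated in the sources used here. Solyc03g116910, which the study lists under oxidation reduction, coenzyme binding and the response to cold, had 915, 836 and 760 RPKM in SIUP, against 2.16, 2.12 and 2.15 RPKM in SCUP. Its libraries agreed closely within each species and the log2 difference was 8.30 (SE 0.12).

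In the opposite direction, Solyc07g007710 had 5.93, 5.19 and 6.13 RPKM in SIUP, against 4178, 3325 and 5044 RPKM in SCUP (-9.37, SE 0.18). Solyc12g089110 had 1.68, 0.556 and 1.64 RPKM in SIUP, against 557, 589 and 538 RPKM in SCUP (-8.36, SE 0.28). Both were high in every S. pimpinellifolium library and low in every S. chilense library, and neither is annotated in the sources used here. For the largest differences of either direction, a loss of reads in mapping and a lower mRNA level cannot be told apart. Over the 10 largest differences in each direction, the log2 difference ran from 5.54 to 10.61 for the genes higher in SIUP and from -9.37 to -6.03 for the genes lower in SIUP. The pollinated styles, which are other libraries of the same accessions, gave the same direction past the threshold for all 10 of the first and 9 of 10 of the second.

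**Figure D3:**
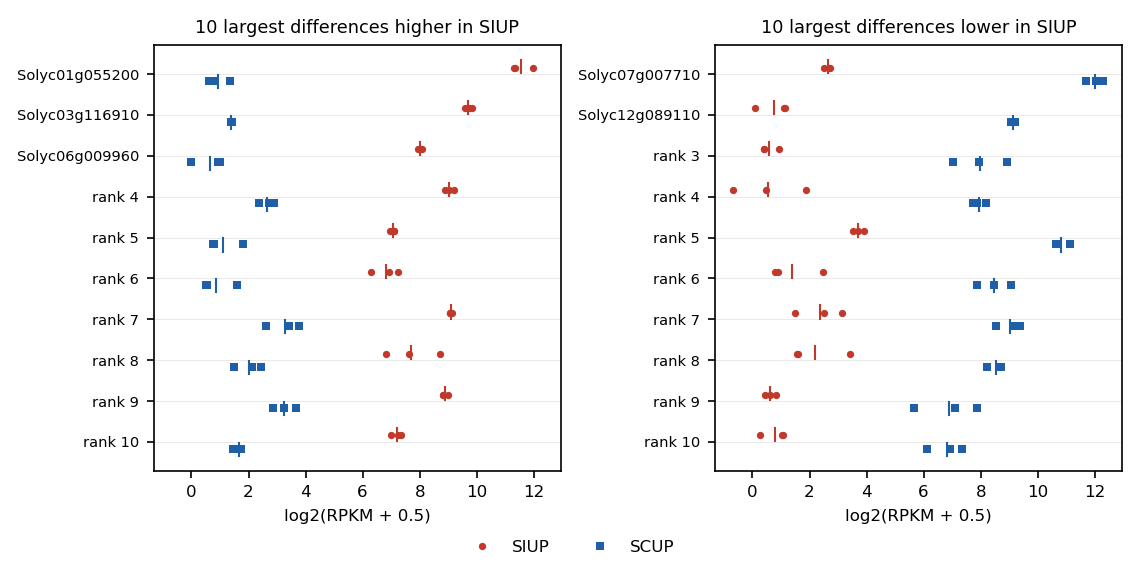
Level in each library on the log2(RPKM + 0.5) scale of the 10 genes with the largest differences higher (left) and lower (right) in SIUP, among genes with a mean of at least 1 RPKM in both species. Circles are SIUP libraries, squares SCUP libraries and short lines group means; genes without a name or GO term beyond the first 2 are given by rank. That the groups do not overlap was a condition for a gene to enter.

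Most differences were also seen after pollination. Of the genes that passed in UP styles, 9637 were tested between SIP and SCP, where 50.5% of all genes tested passed, 27.1% higher in SIP and 23.4% lower. In the same direction 7301 passed (75.8%), 32 passed in the opposite direction and 2304 did not pass. Among those of at least 2-fold, 4826 of 5646 passed in the same direction and 12 in the opposite one. A test of whether the species difference itself differed between UP and P styles passed for 210 of 20,277 genes (1.04%).

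The study names 48 genes of the hormone pathways. It picked them as responsive to pollination on contrasts that contain these same UP libraries, so their direction between the species is not independent of that choice. In UP styles 42 were tested and 27 passed (64.3%, against 52.0% of all genes tested), 8 higher in SIUP and 19 lower, with a median of -0.44 against 0.13 over all genes. The 6 below the minimum were Cul1 (Solyc01g067120), IAA35 (Solyc07g008020), the SAUR genes Solyc03g124020, Solyc09g009980 and Solyc04g081250, and TGA (Solyc10g080410).

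**Figure D4:**
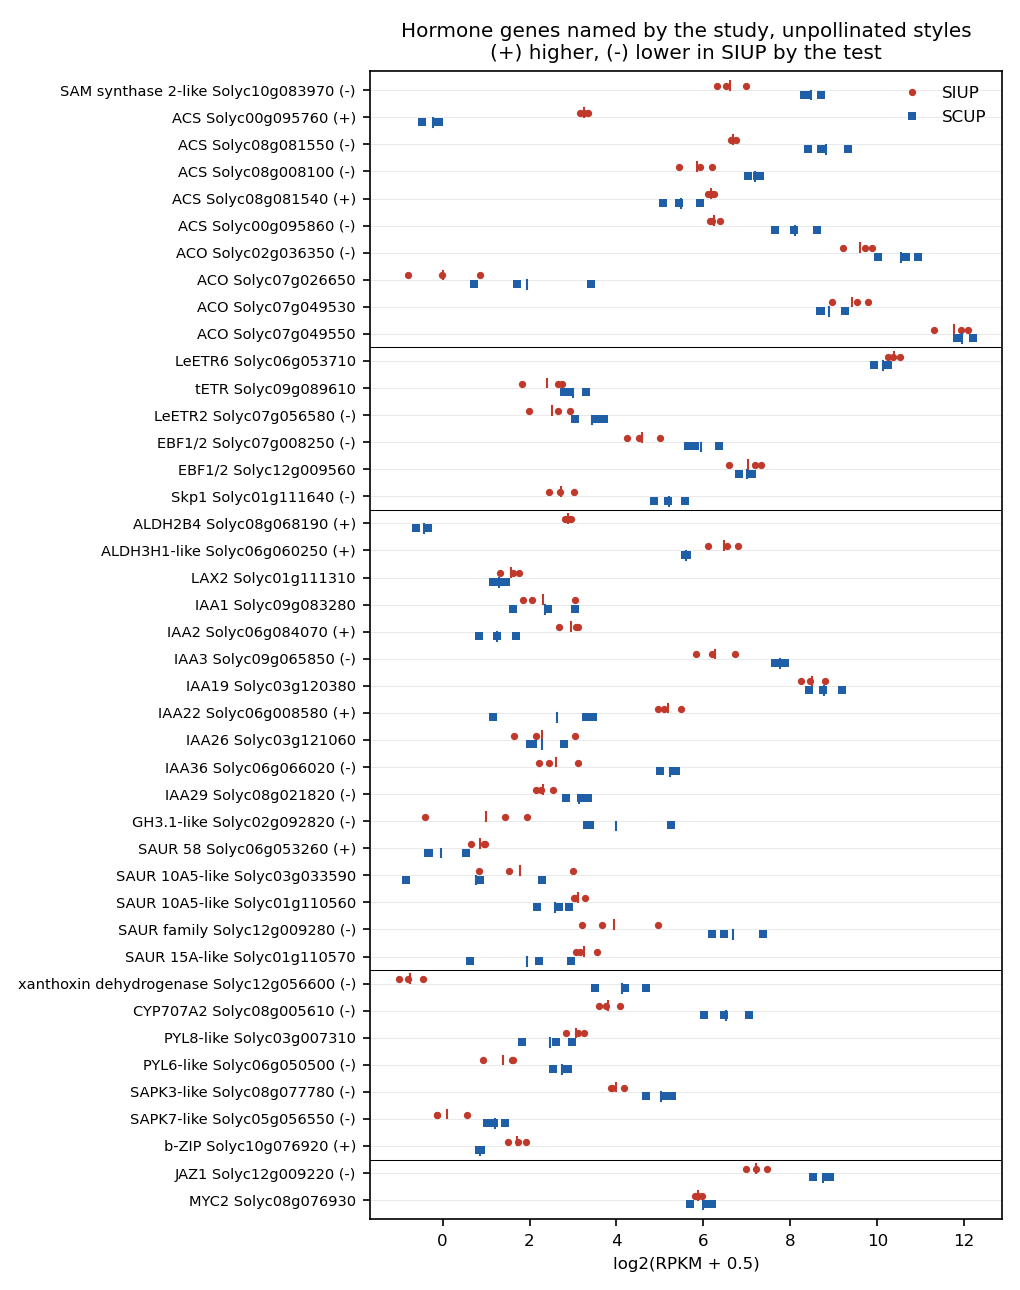
Level in each library of the 42 hormone genes tested, on the log2(RPKM + 0.5) scale, with circles for SIUP libraries, squares for SCUP libraries and short lines for group means. Horizontal lines part, from the top, ethylene biosynthesis, ethylene signalling, auxin, ABA, and JA genes. The sign after the name marks the 8 genes higher (+) and the 19 lower (-) in SIUP.

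Ethylene is made from S-adenosylmethionine (SAM) by ACC synthase (ACS) and ACC oxidase (ACO). Of the 10 genes tested, 2 were higher in SIUP, 5 were lower and 3 did not pass, with a median of -1.13. Thus 70.0% passed, against 52.0% of all genes tested. The SAM synthase gene Solyc10g083970 had 126, 78.9 and 90.6 RPKM in SIUP, against 316, 336 and 420 RPKM in SCUP (-1.87, SE 0.21). All 5 ACS genes passed, and they did not move one way. Solyc00g095760 had 8.40, 9.0 and 9.62 RPKM in SIUP, against 0.215, 0.447 and 0.413 RPKM in SCUP (3.48, SE 0.19). It reached the minimum through SIUP alone, and in SCUP a loss of reads in mapping cannot be told apart from less mRNA. Solyc08g081550 had 108, 100.2 and 98.1 RPKM in SIUP, against 338, 642 and 420 RPKM in SCUP (-2.14, SE 0.23). Lower as well were Solyc00g095860 (-1.87, SE 0.24) and Solyc08g008100 (-1.33, SE 0.21). These last 3 genes were therefore the ones with the highest ACS levels in S. pimpinellifolium. The rule for counting reads with several matches is not stated, and members of this family may share reads.

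The fifth ACS gene, Solyc08g081540, had 68.5, 75.4 and 72.6 RPKM in SIUP, against 32.9, 60.3 and 43.0 RPKM in SCUP (0.70, SE 0.22, adjusted p = 0.0296 by limma). It did not pass under upper-quartile scaling, median-ratio scaling or quantile normalization (adjusted p = 0.051 to 0.115), nor without any 1 of SIUP1, SIUP2, SIUP3, SCUP1 and SCUP3 (0.0562 to 0.0882). Among the ACO genes, Solyc02g036350 had 936, 591 and 847 RPKM in SIUP, against 1960.5, 1037 and 1611 RPKM in SCUP (-0.93, SE 0.29, adjusted p = 0.031 by limma), and this did not pass under quantile normalization (0.112) or without any 1 of SIUP2, SIUP3, SCUP1 and SCUP3 (0.0734 to 0.106). The most abundant one, Solyc07g049550, overlapped between the species, with 2529.6, 4359.8 and 3892 RPKM in SIUP and 3622, 4734 and 3672 RPKM in SCUP (-0.18, SE 0.28). Solyc07g049530 (0.54, SE 0.27) and Solyc07g026650 (-1.92, SE 0.71) did not pass either.

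In ethylene signalling, 3 of 6 genes were lower in SIUP, none was higher and the median was -0.75. The receptor LeETR2 (Solyc07g056580) had 3.49, 7.08 and 5.81 RPKM in SIUP, against 11.2, 12.6 and 7.72 RPKM in SCUP (-0.91, SE 0.29), and did not pass without any 1 of SIUP1, SIUP3, SCUP1 and SCUP2 (limma adjusted p = 0.0693 to 0.0979). The receptor LeETR6 (Solyc06g053710) was abundant in both species and did not pass, with 1215, 1315 and 1461 RPKM in SIUP and 968, 1208 and 1186 RPKM in SCUP (0.25, SE 0.18). The receptor tETR (Solyc09g089610) did not pass (-0.59, SE 0.28). EBF1/2 proteins are F-box proteins that lead to the breakdown of the transcription factor EIN3. Of their genes, Solyc07g008250 had 18.5, 22.4 and 31.5 RPKM in SIUP, against 55.7, 81.4 and 49.5 RPKM in SCUP (-1.35, SE 0.25), and Solyc12g009560 did not pass (0.03, SE 0.21). Skp1 (Solyc01g111640), a subunit of the same ubiquitin ligases, had 7.57, 4.98 and 5.99 RPKM in SIUP, against 28.8, 47.2 and 35.9 RPKM in SCUP (-2.49, SE 0.23). The difference of Skp1 was thus the largest of this group.

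The auxin genes went both ways, with 5 higher in SIUP, 5 lower and 7 not passing of 17 tested, and a median of 0.27. Their share that passed, 58.8%, was near the 52.0% of all genes tested. The number higher was 4 under median-ratio scaling and 7 with quantile normalization. Aldehyde dehydrogenases were named by the study for the last step of auxin synthesis. The member ALDH2B4 (Solyc08g068190) had 6.90, 7.19 and 6.57 RPKM in SIUP, against 0.296, 0.154 and 0.284 RPKM in SCUP (3.31, SE 0.18). It reached the minimum through SIUP alone, and in SCUP a loss of reads in mapping cannot be told apart from less mRNA. The member ALDH3H1-like (Solyc06g060250) had 67.9, 110.1 and 93.2 RPKM in SIUP, against 48.3, 48.4 and 46.9 RPKM in SCUP (0.88, SE 0.19). Both were higher in every S. chilense library. The influx carrier gene LAX2 (Solyc01g111310) did not pass (0.27, SE 0.20).

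Aux/IAA proteins repress the auxin response until auxin brings about their breakdown. Of 8 Aux/IAA genes tested, 2 were higher in SIUP, 3 lower and 3 did not pass. This family thus passed at 62.5%, against 52.0% of all genes tested. IAA22 (Solyc06g008580) had 44.0, 30.5 and 33.6 RPKM in SIUP, against 10.5, 1.72 and 9.39 RPKM in SCUP (2.54, SE 0.58), where SCUP2 was lowest. IAA2 (Solyc06g084070) had 7.91, 8.15 and 5.85 RPKM in SIUP, against 1.28, 1.89 and 2.72 RPKM in SCUP (1.69, SE 0.26). On the other side, IAA36 (Solyc06g066020) had 8.17, 4.18 and 4.99 RPKM in SIUP, against 39.2, 31.5 and 41.2 RPKM in SCUP (-2.63, SE 0.25). Likewise lower were IAA3 (Solyc09g065850; -1.50, SE 0.23) and IAA29 (Solyc08g021820; -0.81, SE 0.20), which did not pass without SIUP3 (limma adjusted p = 0.0508). The family thus held differences of over 4-fold in both directions.

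Early auxin response genes were mostly low and variable. GH3.1-like (Solyc02g092820), of the family of enzymes that conjugate auxin to amino acids, had 0.252, 3.33 and 2.21 RPKM in SIUP, against 9.54, 37.9 and 9.92 RPKM in SCUP (-3.0, SE 0.73). Of 5 SAUR (small auxin-up RNA) genes tested, Solyc12g009280 was lower, with 30.7, 8.66 and 12.3 RPKM in SIUP, against 73.0, 165 and 87.7 RPKM in SCUP (-2.74, SE 0.49). SAUR 58 (Solyc06g053260) was higher, with 1.46, 1.45 and 1.07 RPKM in SIUP, against 0.305, 0.953 and 0.293 RPKM in SCUP (0.90, SE 0.29), and did not pass under median-ratio scaling, with voom, in the fit of all 12 libraries (adjusted p = 0.0577 to 0.0737), or without SCUP1 or SCUP3 (0.117 and 0.136). SAUR 58 reached the minimum through SIUP alone. The other 3 did not pass.

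Of the 7 ABA genes, 5 were lower in SIUP, 1 was higher and 1 did not pass, with a median of -1.11. Thus 85.7% passed, against 52.0% of all genes tested. Genes of both the synthesis and the breakdown of ABA were lower. The xanthoxin dehydrogenase gene Solyc12g056600, of ABA synthesis, had 0, 0.0778 and 0.230 RPKM in SIUP, against 10.8, 25.1 and 17.7 RPKM in SCUP (-4.87, SE 0.32). It is near 0 in S. chilense, with 0.719, 0.0807 and 1.31 RPKM in SIP, against 238, 308 and 176 RPKM in SCP, so a loss of reads in mapping cannot be told apart from a lack of mRNA. CYP707A2 (Solyc08g005610), a hydroxylase that inactivates ABA, had 13.0, 11.5 and 16.3 RPKM in SIUP, against 63.9, 89.0 and 132 RPKM in SCUP (-2.71, SE 0.27).

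The ABA receptor gene PYL6-like (Solyc06g050500) had 1.41, 2.52 and 2.57 RPKM in SIUP, against 5.34, 6.62 and 6.87 RPKM in SCUP (-1.37, SE 0.24), while PYL8-like (Solyc03g007310) did not pass (0.60, SE 0.30). Both kinase genes of ABA signalling were lower, SAPK3-like (Solyc08g077780) by -1.05 (SE 0.19) and SAPK7-like (Solyc05g056550) by -1.11 (SE 0.26). SAPK7-like had only 0.420, 0.416 and 0.973 RPKM in SIUP, where a loss of reads in mapping cannot be told apart from less mRNA. The b-ZIP factor gene Solyc10g076920 was the one ABA gene higher in SIUP, with 2.32, 3.29 and 2.85 RPKM, against 1.35, 1.31 and 1.30 RPKM in SCUP (0.86, SE 0.19). JAZ1 (Solyc12g009220), a repressor of the JA response, had 175, 127 and 147 RPKM in SIUP, against 366, 481 and 449.7 RPKM in SCUP (-1.53, SE 0.18). MYC2 (Solyc08g076930), the transcription factor that JAZ proteins repress, overlapped between the species at 55.8 to 61.7 RPKM in SIUP and 51.1 to 72.6 RPKM in SCUP (-0.11, SE 0.16).

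GO terms were at hand for 826 genes, from the study's lists of genes responsive to pollination in one or both species. The table of these lists is shortened in the sources used here, the terms described were chosen after values were seen, and the lists rest on these same UP libraries, so the counts below are no independent evidence of a direction. Of 639 annotated genes tested, 411 passed (64.3%), 123 higher in SIUP and 288 lower, with a median of -0.46. Over all genes tested 28.1% were higher and 23.9% lower, and the counts by term below stand against these shares. The list of origin mattered. Genes from the S. chilense list alone had a median of -1.31, with 42 higher and 169 lower of 280. Genes from the S. pimpinellifolium list alone had a median of 0.01, with 75 higher and 100 lower of 318, and 55.0% of them passed, close to the 52.0% of all genes.

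**Figure D5:**
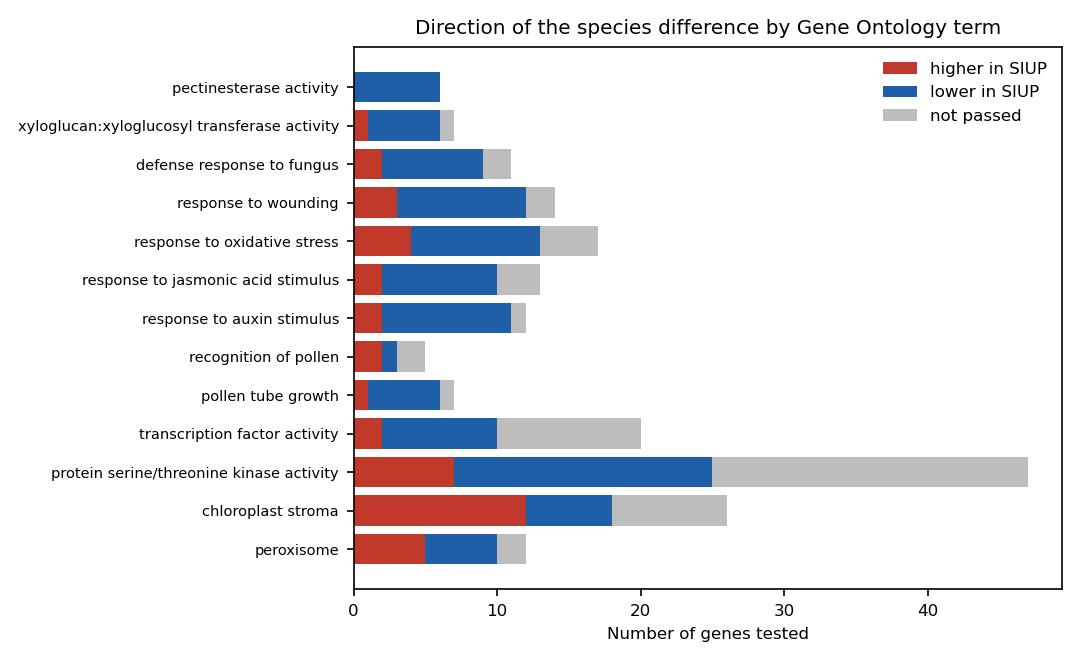
Number of genes tested that were higher, lower or did not pass in SIUP against SCUP, for 13 GO terms of genes from the study's lists. All 6 pectinesterase genes were lower in SIUP, while 12 of 26 chloroplast stroma genes were higher; a gene can stand under several terms.

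Pectinesterases remove methyl groups from wall pectin, and all 6 genes tested under this term (of 8 listed) were lower in SIUP, with a median of -3.19, against 23.9% lower among all genes tested. Solyc05g052110 had 17.7, 5.70 and 8.27 RPKM in SIUP, against 108, 274 and 159 RPKM in SCUP (-4.08, SE 0.46). Solyc05g054360 had 69.5, 22.8 and 29.4 RPKM in SIUP, against 318, 793 and 453 RPKM in SCUP (-3.73, SE 0.47). The others were Solyc01g059940 (-3.22, SE 0.41), Solyc10g081670 (-3.16, SE 0.48), Solyc01g066360 (-2.69, SE 0.49) and Solyc11g005750 (-0.98, SE 0.19). In all 6 the highest SIUP library was SIUP1 and the highest SCUP library was SCUP2. The 2 groups overlapped in none of them, against 63.4% of all genes tested without overlap. Of the 6, 5 came from the S. chilense list, in which 169 of 280 genes were lower.

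Xyloglucan:xyloglucosyl transferases cut and rejoin wall xyloglucan. All 7 genes under this term came from the S. chilense list, and 5 were lower in SIUP, 1 was higher and 1 did not pass, with a median of -2.43. Solyc03g093080 had 26.4, 9.37 and 12.8 RPKM in SIUP, against 305, 601 and 997 RPKM in SCUP (-5.22, SE 0.50). Its neighbour by ID Solyc03g093110 had 2.27, 1.18 and 1.31 RPKM in SIUP, against 18.3, 33.6 and 55.0 RPKM in SCUP (-4.01, SE 0.40). Both kept the same order of the SCUP libraries, with SCUP3 highest, as did Solyc03g093130 (-2.43, SE 0.43), and reads shared within this family cannot be told apart from levels that go together. Solyc07g006850 was also lower (-2.82, SE 0.26), and so was Solyc11g040140 (-1.09, SE 0.34), which did not pass without any 1 of SIUP1, SIUP2, SIUP3 and SCUP3 (limma adjusted p = 0.0598 to 0.0813). Solyc03g093120 did not pass (-0.84, SE 0.51). The gene higher in SIUP was Solyc12g011030, with 134, 71.9 and 115 RPKM in SIUP, against 32.2, 38.1 and 38.2 RPKM in SCUP (1.51, SE 0.24).

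Genes under pollen tube growth and under recognition of pollen were few. Of 7 genes tested under pollen tube growth, 5 were lower in SIUP, 1 was higher and 1 did not pass, and the largest difference was that of the pectinesterase gene Solyc05g052110. All 5 lower genes came from the S. chilense list. Solyc01g097960 had 2.18, 1.30 and 1.02 RPKM in SIUP, against 9.84, 24.3 and 17.2 RPKM in SCUP (-3.09, SE 0.36). Solyc01g080150 (-2.16, SE 0.29), Solyc12g017390 (-2.06, SE 0.36) and Solyc06g066800 (-1.65, SE 0.49) were lower, and the last did not pass without any 1 of SIUP2, SIUP3, SCUP2 and SCUP3 (limma adjusted p = 0.0596 to 0.0809). Solyc01g080150 had 0.0570, 0.282 and 0.389 RPKM in SIUP, against 3.81, 1.93 and 2.79 RPKM in SCUP. For it a loss of reads in mapping and a lower mRNA level cannot be told apart. Higher was Solyc01g099660, with 1.42, 3.33 and 3.32 RPKM in SIUP, against 0.203, 0.246 and 0.260 RPKM in SCUP (2.04, SE 0.30), and Solyc08g078070 did not pass (-0.41, SE 0.24). Solyc01g099660 reached the minimum through SIUP alone, and in SCUP mapping and mRNA level cannot be told apart.

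Under recognition of pollen, a term given to receptor-like kinases related to those of the self-incompatibility of the cabbage family, 5 of 9 genes were tested, 2 higher in SIUP, 1 lower and 2 not passing. Solyc07g063730 had 4.22, 8.23 and 6.10 RPKM in SIUP, against 0.267, 0.741 and 0.342 RPKM in SCUP (2.80, SE 0.30). It reached the minimum through SIUP alone, and in SCUP mapping and mRNA level cannot be told apart. Solyc00g201160 had 6.24, 7.11 and 7.08 RPKM in SIUP, against 2.93, 3.05 and 3.01 RPKM in SCUP (1.06, SE 0.16). Both were higher in every S. chilense library. Solyc02g030380 was close to absent in SIUP at 0, 0 and 0.17 RPKM, against 9.91, 11.8 and 11.2 RPKM in SCUP (-4.38, SE 0.20), and for it too mapping and mRNA level cannot be told apart. Solyc02g079590 (-0.43, SE 0.19) and Solyc04g077270 (-0.16, SE 1.03) did not pass.

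Terms of defence and stress did not all lean one way. Under defence response to fungus, 7 of 11 genes were lower in SIUP, 2 were higher and the median was -1.20. Solyc02g064680, also listed under calmodulin binding, had 39.7, 21.1 and 24.0 RPKM in SIUP, against 209, 382 and 341 RPKM in SCUP (-3.44, SE 0.30). The 2 higher genes were Solyc10g062160, with 20.5, 21.7 and 22.3 RPKM in SIUP, against 2.94, 3.48 and 3.33 RPKM in SCUP (2.55, SE 0.15), and Solyc04g050820 (1.29, SE 0.16). Under response to wounding, 9 of 14 were lower, 3 higher and the median was -1.28. Under response to oxidative stress, 9 of 17 were lower, 4 higher and the median was -0.88. Solyc06g005170, which stands under both, had 35.9, 13.0 and 18.8 RPKM in SIUP, against 104, 133 and 201 RPKM in SCUP (-2.74, SE 0.39). The ACS genes above also stand under both terms. Under response to stress, 4 of 8 genes were higher, 2 lower and the median was -0.05, and under defence response to bacterium 2 of 9 were higher and 3 lower.

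Hormone responses were counted by term as well. Under response to auxin stimulus, 9 of 12 genes were lower in SIUP, 2 were higher and the median was -1.21, and both higher genes were ACS genes, Solyc00g095760 and Solyc08g081540. Under response to jasmonic acid stimulus, 8 of 13 were lower, 2 were higher, again these ACS genes, and the median was -1.33. The member with the largest fall below SCUP, Solyc03g005570, had 0, 0.0650 and 0.0641 RPKM in SIUP, against 2.47, 2.91 and 5.80 RPKM in SCUP (-2.88, SE 0.31). It is near 0 in S. chilense, where a loss of reads in mapping and a lack of mRNA cannot be told apart. Solyc04g009440 varied widely among the SCUP libraries, with 2.08, 3.42 and 4.95 RPKM in SIUP, against 8.04, 74.9 and 33.3 RPKM in SCUP (-2.88, SE 0.73).

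Genes of regulators were called at about the rate of all genes. Under transcription factor activity, 8 of 20 tested genes were lower in SIUP, 2 were higher and 10 did not pass, with a median of -0.78. Solyc09g075420 had 4.48, 8.15 and 8.86 RPKM in SIUP, against 148, 157 and 155 RPKM in SCUP (-4.38, SE 0.24), steady within each species. Solyc03g119250 (-2.95, SE 0.25) and Solyc01g093960 (-2.93, SE 0.21) were lower too. Under protein serine/threonine kinase activity, 18 of 47 were lower, 7 higher and 22 did not pass, with a median of -0.26. Its largest difference besides Solyc02g030380 was that of Solyc02g089010, with 4.84, 3.95 and 3.61 RPKM in SIUP, against 53.9, 68.8 and 44.1 RPKM in SCUP (-3.58, SE 0.20).

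The terms of the chloroplast differed in direction. Under the term chloroplast itself, 17 of 27 genes were lower in SIUP, 4 were higher and the median was -0.90, while under chloroplast envelope 3 of 17 were lower and 5 higher. Of 26 genes under chloroplast stroma, 12 were higher in SIUP, 6 lower and 8 did not pass, with a median of 0.45, and under median-ratio scaling the counts were 8 and 6. Of the 18 from the S. pimpinellifolium list, 10 were higher and 2 lower. Of the 8 from the S. chilense list, 2 were higher and 4 lower. Solyc07g063060 had 22.6, 38.1 and 31.6 RPKM in SIUP, against 2.99, 2.14 and 1.26 RPKM in SCUP (3.60, SE 0.30). Solyc10g054870 had 3.11, 4.26 and 3.93 RPKM in SIUP, against 0.229, 0.0795 and 0.147 RPKM in SCUP (2.71, SE 0.21). It reached the minimum through SIUP alone, and in SCUP mapping and mRNA level cannot be told apart. On the lower side, Solyc04g005160, which stands under chloroplast stroma and peroxisome, had 45.0, 40.6 and 42.5 RPKM in SIUP, against 129.8, 186 and 193 RPKM in SCUP (-1.95, SE 0.18). Of 12 peroxisome genes, 5 were higher and 5 lower (3 and 5 under median-ratio scaling), and the largest difference was that of Solyc02g067580, with 7.76, 6.08 and 9.28 RPKM in SIUP, against 41.0, 71.8 and 44.2 RPKM in SCUP (-2.66, SE 0.25).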

How the data were processed

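Styles with stigmas were sequenced as poly-T selected mRNA on Illumina paired ends. The authors trimmed read pairs (Trimmomatic 0.32 in the submitters' notes), used TopHat2 to align them against a tomato genome, counted reads by gene with HTSeq and deposited RPKM per gene. Build, annotation version and strand setting were not given in the sources used here. Also, the authors deposited, for each library, counts of read pairs before and after quality filtering. The authors' own fold changes, p-values and marks of pollination response within a species were not used. The RPKM stand on 2 deposited sheets, 0 columns were left unmatched, and 7 genes with error codes (of 34,725) and 1 line of totals were left out.

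Whole reads were recovered from the deposited RPKM, because 1 read sets a fixed step for each gene and library. For 26,562 of 26,562 genes above 0 in at least 2 libraries (100%), all values came out whole within 0.001 reads, and 1290 genes above 0 in 1 library could not be compared. Counts of reads and floors cover counting error only.

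SIUP was compared with SCUP on log2(RPKM + 0.5) by the moderated linear model of limma 3.58.1 (R 4.3.3), with a trend of the variance on the level. Genes entered with 1 RPKM or more in 3 or more of the 6 libraries. Benjamini-Hochberg adjustment ran over all of them, and the threshold was 0.05. Differences are SIUP minus SCUP on this scale, which understates the difference of low genes. Errors after ± are SD of 3 libraries and SE are those of limma. The methods of the study state no test between species. Python 3.11.15 gave the other values (pandas 2.3.3, numpy 2.4.6) and the figures (matplotlib 3.10.9).

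Genes were named by a rule: the 10 largest differences in each direction, the 10 most abundant genes of each group, the 8 highest genes at 0 in the other species, the 48 hormone genes of the study and up to 4 examples per GO term. The largest differences were sought among genes that passed, did not overlap between the groups and averaged at least 1 RPKM in both. At most 2 unannotated IDs are given in each direction. Further members of small terms were named after their values were seen. The members and lists were chosen with earlier results of these data known. Lists by gene description could not be formed, because the reference table at hand matched none of the IDs.

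The fit was tested on reads simulated for SIUP minus SCUP with 200 genes changed. Of 18,806 genes fitted it recovered 63.6% of those changed 4-fold and 16.3% of those changed 2-fold, and called 6 without a change. Genes were drawn independently, so shifts common to many genes of 1 library were not simulated. Only 200 genes were changed, while 10,001 passed in the data, so the adjusted threshold was stricter in the simulation. Its spread between replicates was the full observed one, which already holds counting error. The shares recovered therefore do not measure the power of the fit on the data. The alternatives were pseudocounts of 0.1 and 1, no filter, 5 RPKM, 1 RPKM in all 6 libraries, 3 scalings, no trend, an unequal-variance test, the criteria of the study, voom on recovered reads, all 12 libraries, a replicate block and each library left out.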

Additional observations from a re-analysis of the deposited data

Results flagged for a closer look

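For 9 of the 92 genes followed singly, the test of the species difference in UP styles against that in P styles passed. Over all genes it passed for 210 of 20,277 (1.04%, limma interaction over 12 libraries). The 9 come from the study's lists of genes responsive to pollination, which rest on these same UP and P libraries. That choice favours a difference between UP and P styles, so their number is no independent evidence. The values below are the log2 difference in UP styles minus that in P styles.

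For 3 genes the species difference was larger in P than in UP styles, and S. chilense was the lower species in both. Xanthoxin dehydrogenase (Solyc12g056600) differed by 2.89 (SE 0.58, adjusted p = 0.0428), with -4.87 in UP and -7.76 in P. PYL6-like (Solyc06g050500) differed by 1.85 (SE 0.38, adjusted p = 0.0458), with -1.37 in UP and -3.23 in P. Solyc03g118190, listed under transcription factor activity and defence response to fungus, differed by 3.08 (SE 0.43, adjusted p = 0.0134). It had 1.68, 1.36 and 1.64 RPKM in SIUP, against 7.27, 14.5 and 8.22 RPKM in SCUP, and 1.57, 2.04 and 0.638 RPKM in SIP, against 81.9, 75.0 and 66.9 RPKM in SCP.

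Differences seen in UP styles and not past the threshold in P styles were found for 4 genes. JAZ1 (Solyc12g009220) differed by -1.13 (SE 0.22), with -1.53 in UP and -0.40 in P. Solyc01g080150, under pollen tube growth and near 0 in SIUP, differed by -1.80 (SE 0.37), with -2.16 in UP and -0.36 in P. The kinase genes under recognition of pollen, Solyc07g063730 and Solyc00g201160, differed by 2.46 (SE 0.38) and 1.37 (SE 0.24), with 2.80 and 1.06 in UP and 0.35 and -0.31 in P. Solyc07g063730 had 3.78, 3.58 and 3.63 RPKM in SIP, against 2.58, 3.74 and 2.19 RPKM in SCP.

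The direction turned for 2 genes. ALDH3H1-like (Solyc06g060250) differed by 1.56 (SE 0.29), being higher in SIUP than in SCUP (0.88) and lower in SIP than in SCP (-0.68, adjusted p = 0.0292). The xyloglucan transferase gene Solyc11g040140 differed by -4.06 (SE 0.49, adjusted p = 0.00624). It had 2.38, 2.92 and 3.25 RPKM in SIUP, against 11.5, 4.30 and 5.73 RPKM in SCUP, and 19.6, 32.5 and 21.2 RPKM in SIP, against 2.28, 1.88 and 4.02 RPKM in SCP.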

How the results depend on the processing

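An unequal-variance test on RPKM with adjustment called 2259 genes, 1491 higher in SIUP and 768 lower, 1851 of them with a mean of at least 1 RPKM in both species. The criteria of the study called 4209, 2198 higher and 2011 lower, 2809 in both. With voom on the recovered reads 9972 genes were called. Other settings of the whole fit called 7436 (at least 1 RPKM in all 6 libraries) to 11,341 (no filter). With each library left out, 6617 to 8731 genes were called, 2882 to 5275 higher, 2807 to 4238 lower and 5358 to 7448 in both species, and the genes called in the same direction in P styles numbered 5273 to 6778 of 7301. Without 1 UP library, 18,082 to 18,462 genes were tested, since the minimum of 3 libraries was kept. No gene called with RPKM as deposited was called in the opposite direction under any of these settings. With a replicate block 9546 genes were called, and 219 for the difference between UP and P styles. Deviations of same-numbered libraries correlated by -0.03 to 0.09 and those of other numbers by -0.12 to 0.08. With 3 libraries per group these values cannot settle whether the numbers pair the libraries.

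Of 92 genes followed singly, 73 were called and all 73 kept their direction. Of these, 66 kept the call in every setting that tested them, apart from the unequal-variance test and the criteria of the study, which lost 55 and 29. Some genes near 0 in 1 species fell below the minimum in some settings and were not tested there. Solyc12g056600, for instance, was not tested with any 1 SCUP library left out. Turned signs were limited to 5 genes that did not pass: Solyc12g009560 (-0.0037 with upper-quartile and -0.11 with median-ratio scaling), Solyc09g083280 (0.081 with quantile normalization), Solyc03g121060 (0.10 with quantile normalization, 0.0555 from means of RPKM in the unequal-variance test and 0.0555 with the criteria of the study), Solyc07g049550 and Solyc04g077270. With each library left out, these 5 ranged over -0.11 to 0.26, -0.42 to 0.29, -0.40 to 0.30, -0.34 to 0.0501 and -1.03 to 0.62, in that order. The cause was not tested. With 1 library left out, the spread of its group is pooled with the other by limma. Depth limits genes near 1 RPKM, where 1 read on a short gene is a large part of the level.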

Other observations

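Other terms of the study's lists, also chosen after values were seen, gave the following counts in UP styles. Among 14 genes tested under hydrolysis of O-glycosyl compounds, 10 were lower in SIUP and 2 higher, with a median of -2.10, and 7 of them are the xyloglucan transferase genes already described. Under response to abscisic acid stimulus, 7 of 19 genes tested were lower and 2 higher, with a median of -0.44. Over the 113 terms with at least 6 listed genes, the median difference was below 0 in 91 and above 0 in 22, and terms share genes. All annotated genes tested had a median of -0.46, against 0.13 over all genes tested. The count of terms below 0 is therefore no separate evidence of a direction.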
